A study of Homo sapiens with 12 samples.

Results

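The collagens, laminins and integrins of a hepatoma cell line were followed from the RNA of the cell into the RNA that came down with the RNA-binding protein HuR. Members were all protein-coding genes with a symbol that starts with COL, a number and A, with LAMA, LAMB or LAMC and a number, or with ITGA or ITGB and a number or letter, and fibronectin (FN1) was added to them. This rule used no measured value and found 87 of the 57773 genes in the files, namely 44 collagens, 12 laminins, 18 integrin alpha subunits, 8 integrin beta subunits, FN1, and 4 genes (ITGB1BP1, ITGB1BP2, ITGB3BP and ITGBL1) that carry an integrin name but encode no subunit. Of the 87, 54 passed the filter on low counts and were tested, which is 22 collagens, 8 laminins, 13 alpha subunits, 7 beta subunits, 3 of the integrin-named genes and FN1.

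HuR, encoded by ELAVL1, binds stretches rich in uridine and adenosine in messenger RNA, mostly in introns and 3′ untranslated regions (3′UTRs), and is best known for holding labile transcripts stable. SUMOylation joins the small protein SUMO to lysines of a target protein. Collagens are the triple-helical proteins of the extracellular matrix, laminins are the heterotrimers (1 alpha, 1 beta and 1 gamma chain) that build basement membranes, and fibronectin is a matrix and plasma glycoprotein made in quantity by hepatocytes. Integrins are the alpha and beta heterodimers that anchor a cell to these proteins and signal from the contact.

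HuH-7 is an established human hepatoma line, and each library came from HuH-7 cells that stably overexpressed V5-tagged HuR. In the WT line the tagged protein was wild type, and in the mutant line it was HuR K120/182R, in which the lysines named in the label are arginines. From each line came RNA bound to the tagged protein (RNA immunoprecipitation, RIP) and total input RNA, with 3 libraries in each of the 4 groups (WT RIP, WT input, mutant RIP and mutant input). All groups thus shared the host cell, its own HuR gene, the tag and the overexpression. A precipitate from cells without the tag or with a control antibody was not used here, so a level in the precipitate cannot be told apart from RNA that came down without HuR. A RIP library started from 16 to 77 ng of RNA and an input library from 250 ng, so the precipitation and the amount of starting RNA cannot be told apart. The column headers carry the word DMSO, which the labels do not explain. The labels do not say whether a line was 1 clone, nor whether separate cultures lay behind the 3 libraries of a group; the p-values cover library-to-library spread and no more.

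The 12 libraries held 31774994 to 73149117 counts in genes. Members took 0.0741% to 0.129% of the counts in the inputs and 0.0962% to 0.142% in the precipitates. Levels are counts per 1000000 counts of a library (CPM) after trimmed-mean (TMM) scaling, which sets libraries to the same level for the bulk of genes; its factors were 0.526 to 0.909 in the inputs and 1.32 to 1.78 in the precipitates. A log2 fold change of a precipitate over its input is thus relative to the other genes. Scaled by total counts instead, the median of all genes tested moved to 1.12 in the WT line and 1.38 in the mutant line, so a gene with a small negative value on the TMM scale has a positive one there. ELAVL1, counted without a distinction between the cell's own copy and the tagged one, had 54.1 to 64.2 CPM in the WT inputs and 44.4 to 52.7 CPM in the mutant inputs. All 12 hepatocyte markers were detected, with a summed level of 11510 to 13510 CPM in the WT inputs, 9061 to 10200 in the mutant inputs, 5980 to 6252 in the WT precipitates and 3753 to 4207 in the mutant precipitates. Of 10 stellate cell and fibroblast markers, 7 stayed under 1 CPM and DES, LRAT and POSTN were at 0 in all 12 libraries; the summed level was 16.9 to 19.3 CPM in the WT inputs, 27.4 to 31.01 in the mutant inputs, 15.5 to 16.4 in the WT precipitates and 21.8 to 24.5 in the mutant precipitates. Of 7 endothelial markers, 6 stayed under 1 CPM (sum 0.262 to 1.18 CPM), and of 8 immune cell markers 6 did (sum 5.68 to 9.54 CPM).

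The 3′UTR windows below show what kind of sequence these transcripts offer to a protein that prefers uridine. Each is the 30 bases with the most T in the annotated 3′UTR of the gene (hg19, transcript strand, 5′ to 3′, T standing for U), with runs of 4 or more T and every ATTTA in capitals. The first 4 belong to members lower in the precipitates of both lines, FN1 to a member that passed in neither line on the TMM scale, and the last 3 to members higher in both.
COL2A1, chr12:48366969-48366998, minus strand: aatctcggtgttctATTTATTTAttgtctt
COL6A1, chr21:47424882-47424911, plus strand: atgttagTTTTgctccttctgtgTTTTTTT
LAMC1, chr1:183114303-183114332, plus strand: cTTTTaactttcTTTTTgttatttgcTTTT
ITGB1, chr10:33189676-33189705, minus strand: ttgaATTTATTTTattaTTTTTaTTTTgtt
FN1, chr2:216225751-216225780, minus strand: tctttctcttacctgttATTTAtcaaTTTT
COL28A1, chr7:7397927-7397956, minus strand: tgtgattctgattcctttaattcctgttgt
ITGAE, chr17:3617926-3617955, minus strand: tttggtattaaataaATTTAcacTTTTctt
ITGB3, chr17:45390699-45390728, plus strand: ttgaaatttcTTTTcTTTTTTTTTTTTTTT
The window of COL2A1 holds 17 T and 2 overlapping ATTTA, that of ITGB1 22 T, that of LAMC1 21, that of ITGAE 16 and that of COL28A1 16 with no run of 4. The richest window held a median of 18 T in the 18 members lower in both lines, 18 in the 7 members higher in both lines, and 18 over 18639 protein-coding genes with an annotated 3′UTR. A run of 4 T (TTTT, this strand only) was in the richest window of 70 of the 87 members (80.5%) and of 78.0% of the protein-coding genes, and ATTTA was in 22 of them (25.3%) against 14.7%. Over whole 3′UTRs, which differ in length, ATTTA occurred in 65 of 87 members (74.7%; 68.6% of protein-coding genes), in 14 of the 18 lower in both lines and in 6 of the 7 higher in both. Such a match is a description of the letters and not a binding site, and no test was made on these shares.

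The first question was what of the matrix and adhesion program these cells expressed, which the inputs answer. Levels between genes are compared per kilobase of annotated exon, as the mean over the 6 inputs. Among the collagens, COL2A1, the fibrillar collagen of cartilage, stood at 56.7 CPM per kb and made up 63.3% of the collagen sum, followed by COL5A2 (a fibrillar type V chain) at 13.3, COL26A1 at 9.90, COL18A1 (the basement membrane collagen from which endostatin is released) at 4.79 and COL6A1 (a chain of the beaded-filament collagen) at 1.51. Type I collagen was scarce: COL1A2 stood at 0.160 CPM per kb, and COL1A1 had 11 counts over the 12 libraries and was not tested.

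The laminin alpha, beta and gamma chains with the highest levels were LAMA5, LAMB1 and LAMC1, which are known to assemble with each other. LAMB1 stood at 8.09 CPM per kb, LAMC1 at 5.77 and LAMA5 at 2.46, followed by LAMB2 at 1.39; the other laminin chains were all under 0.1 CPM per kb. Among integrin alpha subunits ITGA6, a laminin receptor chain, led with 8.90 CPM per kb, ahead of ITGAE at 3.05 and ITGAV (which binds vitronectin and fibronectin) at 1.84. Among beta subunits ITGB1, the partner of most alpha chains, stood at 15.8 CPM per kb and ITGB5, a partner of ITGAV, at 8.06, while ITGB8 was at 0.848 and ITGB3 at 0.511. FN1 stood at 7.46 CPM per kb.

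Partners of one protein were not at like levels. COL6A1 had 7.10, 8.80 and 11.9 CPM in the WT inputs, COL6A3 had 1.33, 0.995 and 1.03, and COL6A2 had 20 counts in all 12 libraries and was not tested. ITGAE, whose known partner is ITGB7, was at 18.7 to 21.6 CPM in the WT inputs, whereas ITGB7 was at 0.0429 to 0.127 CPM; 42.3% of the exon bases of ITGB7 lie opposite ZNF740, so even these counts are uncertain. COL4A1 was at 0.211 CPM or less in all 6 inputs and COL4A2 had 36 counts.

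Of the 33 members not tested, 22 were collagens, 4 were laminins (LAMA1, LAMA4, LAMB3 and LAMC3), 5 were alpha subunits (ITGA4, ITGA8, ITGA10, ITGAD and ITGAX), 1 was ITGB2 and 1 was ITGBL1. None had more than 69 counts over the 12 libraries, and COL13A1, COL25A1 and ITGBL1 had 0; among the tested, the smallest total was 73. Of the 54 tested, 31 had a mean of at least 1 CPM and 23 were below it. A gene passes the filter through the groups where it is high. On the TMM scale, 43 of the tested members reached the level of the filter in at least 3 precipitates and at least 3 inputs. Another 7 did so only in precipitates (COL10A1, COL11A1, COL4A1, COL6A6, ITGB6, ITGB7 and LAMA2), 1 only in inputs (COL7A1) and 3 in neither. A precipitate level above the input was thus partly built into those 7. The filter itself used counts without TMM scaling, where inputs stand lower and precipitates higher. Further members may thus have passed through the precipitates alone. COL4A3, among the 43, had only 8, 11 and 11 counts in the WT inputs and 10, 8 and 2 in the mutant inputs.

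In the WT line, 19 of the 31 members with a mean of at least 1 CPM were lower in the HuR precipitate than in the input on the TMM scale, and 5 were higher. With edgeR's quasi-likelihood test at an adjusted p under 0.05 over 22984 genes, 10 of the 54 tested members were higher and 21 were lower in WT RIP. The same calls took 25.6% of all genes tested upward and 25.4% downward; over protein-coding genes they took 22.04% and 34.03%. The median log2 fold change of the members was -0.28, that of all genes 0.06 and that of protein-coding genes -0.13. Those 31 members, 16.1% of them higher and 61.3% lower with a median of -0.77, stand beside 11798 protein-coding genes of that level, of which 23.8% were higher and 38.7% lower with a median of -0.16. Nothing particular to the members was tested. The counts lean on the scaling: by total counts 27 members were higher and 5 lower, and the median was 0.77 where that of all genes was 1.12. Without WT input 1, 4 members were higher in place of 10; the 6 lost were COL24A1, COL6A6, ITGA11, ITGA9, ITGB3 and LAMB4.

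The mutant line gave counts close to these. In mutant RIP 12 members were higher and 22 lower than in mutant input, against 29% and 28% of all genes (26.6% and 36.1% of protein-coding genes), with a median of -0.22; among the 31 members with at least 1 CPM 6 were higher and 18 lower (19.4% and 58.1%; 28.9% and 40.5% of protein-coding genes of that level). By total counts 29 were higher and 4 lower. Called lower in both lines were 18 members, which is 85.7% of the WT calls and 81.8% of the mutant calls, and called higher in both were 7, which is 70% and 58.3%. No member was called in opposite directions. Of the 7 higher in both lines, COL6A6 and LAMA2 reached the level of the filter only in precipitates. Such members made up 2 of the 10 higher calls in the WT line and 3 of the 12 in the mutant line. The same overlap over all genes is not given here, so these shares show nothing particular to the members. The lines share no library, and across the 31 members with at least 1 CPM their log2 fold changes had a Pearson r of 0.967 and a Spearman rho of 0.95 (54 members: 0.816 and 0.82), as a description across genes, which are not independent replicates.

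**Figure D1:**
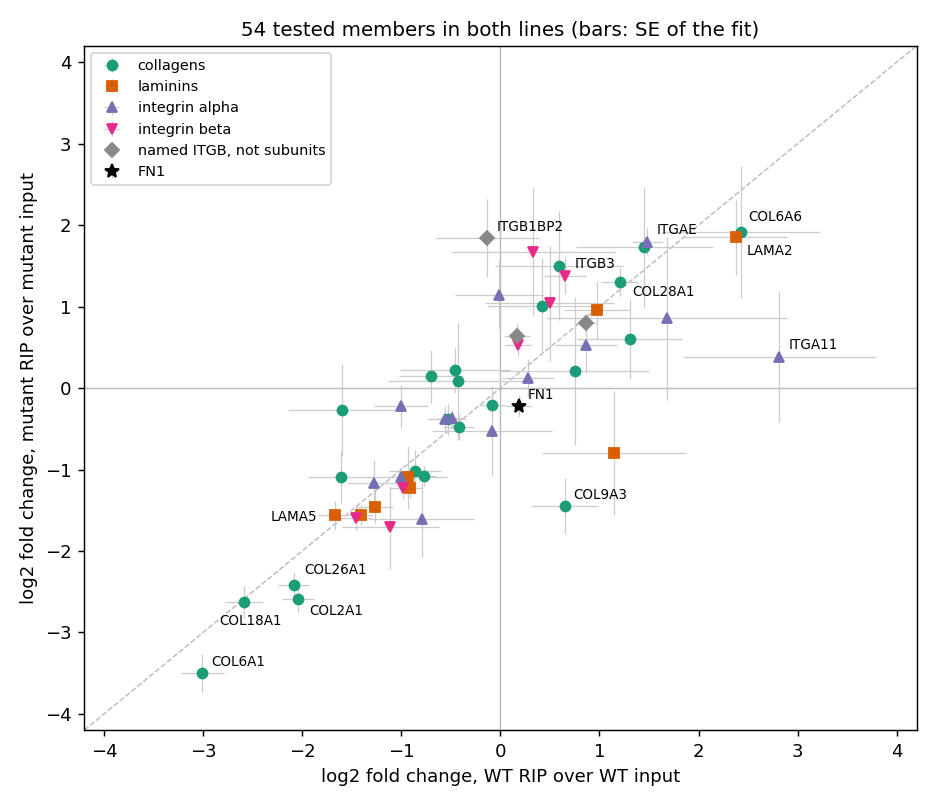
Log2 fold change of the precipitate over its input in the WT line (x axis) and the mutant line (y axis) for the 54 tested members, on the TMM scale; bars are the SE of the fit, symbols mark the families, and the dashed line marks equal values. COL6A1, COL18A1, COL26A1 and COL2A1 lie farthest down in both lines, FN1 lies near 0 on this scale (1.23 and 1.09 with total counts), and COL9A3 lies right of 0 and below it.

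Collagens held the largest falls of the abundant members. Called lower were 10 of 22 tested collagens in the WT line and 9 in the mutant line, and called higher 3 and 3. That is 45.5% and 40.9% lower, and 13.6% higher in each line. Of protein-coding genes 34.03% and 36.1% were lower, and 22.04% and 26.6% higher. Of all genes tested 25.4% and 28% were lower, and 25.6% and 29% higher. Nothing particular to collagens was tested. COL2A1 had 295, 329 and 381 CPM in the WT inputs and 66.6, 94.97 and 82.3 in the WT precipitates. In the mutant line it had 508, 376 and 375 CPM in the inputs and 68.6, 74.4 and 66.7 in the precipitates. Every precipitate was thus far below every input in both lines. The level fell 4.12-fold in WT RIP (log2 -2.04 ± 0.16 SE, edgeR adjusted p = 1.33e-10) and 6.003-fold in mutant RIP (log2 -2.59 ± 0.16, edgeR adjusted p = 1.68e-12).

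COL6A1 had the lowest ratio of all tested members. It had 1.09, 1.27 and 1.10 CPM in the WT precipitates against 7.10, 8.80 and 11.9 in the inputs, and 0.536, 0.686 and 0.780 against 9.36, 6.73 and 6.34 in the mutant line. The groups did not overlap, and the log2 fold changes were -3.01 ± 0.21 (edgeR adjusted p = 3.51e-11) and -3.50 ± 0.23 (edgeR adjusted p = 3.93e-12). Its partner chain COL6A3 passed the test in neither line (log2 -0.70 ± 0.32 and 0.14 ± 0.32). COL26A1 (log2 -2.09 and -2.42) and COL18A1 (log2 -2.59 and -2.62) also fell; 18.5% of the exon bases of COL18A1 lie opposite SLC19A1, and the strand setting of the counting is not given in the sources used here. These 4 collagens were called lower also when libraries were scaled by total counts, in both lines.

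COL5A2 fell less. It had 118, 115 and 123 CPM in the WT inputs and 60.4, 75.0 and 73.8 in the WT precipitates, and 79.5, 72.9 and 74.9 against 32.2, 40.8 and 35.0 in the mutant line. No precipitate reached an input of its line on this scale; the log2 fold changes of -0.77 ± 0.12 and -1.07 ± 0.12 turned to 0.28 and 0.22 with total counts. COL27A1, another fibrillar collagen, had -0.42 and -0.48, and its direction turned with total counts (0.61 and 0.82) and when each library's trend with GC content was removed (0.25 and 0.40). COL27A1 in the WT line was not called without WT RIP 1, WT input 1 or WT input 3, nor in the mutant line without mutant input 1. COL12A1, a fibril-associated collagen at 11.7 to 13.2 CPM in the 6 WT libraries, passed in neither line on the TMM scale (log2 -0.08 ± 0.13 and -0.21 ± 0.14; edgeR adjusted p = 0.627 and 0.207). With total counts it was called higher in both (0.97 and 1.10; edgeR adjusted p = 2.82e-05 and 3.4e-06).

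COL28A1 was the collagen with at least 1 CPM that rose. Its level was 1.80, 1.28 and 1.27 CPM in the WT inputs and 3.33, 3.44 and 3.28 in the WT precipitates. In the mutant line it was 2.89, 2.73 and 2.80 CPM in the inputs and 7.16, 7.04 and 6.61 in the precipitates. Precipitates lay above inputs without overlap in both lines, with log2 fold changes of 1.204 ± 0.18 (edgeR adjusted p = 5.19e-06) and 1.30 ± 0.17 (edgeR adjusted p = 5.17e-07). COL6A6, called higher in both lines, is one of the 7 members that passed the filter through the precipitates and stood at 0.519 CPM or less throughout.

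The abundant laminin chains were lower in the precipitates. Of 8 tested chains 4 were lower and 2 higher in the WT line, and 5 were lower and 2 higher in the mutant line. Of protein-coding genes 34.03% were lower and 22.04% higher in the WT line, and 36.1% and 26.6% in the mutant line. For all genes tested these shares were 25.4% and 25.6%, and 28% and 29%. Nothing particular to the 8 chains was tested. LAMB1 had 136, 135 and 150 CPM in the WT inputs and 71.2, 76.2 and 76.5 in the WT precipitates, and 159, 170 and 152 against 73.0, 70.7 and 61.8 in the mutant line. LAMC1 had 50.7, 49.8 and 53.0 against 17.8, 17.2 and 22.9 CPM, and 47.0, 47.0 and 44.9 against 16.3, 16.9 and 14.0. Precipitates and inputs of a line did not overlap for either chain. LAMC1 fell 2.65-fold and 2.94-fold (log2 -1.40 ± 0.12 and -1.55 ± 0.13; with total counts -0.35 and -0.25, not called), and LAMB1 fell 1.88-fold and 2.34-fold (log2 -0.91 ± 0.12 and -1.23 ± 0.12) on the TMM scale, where total counts gave LAMB1 values of 0.14 and 0.09. LAMA5, the alpha chain at 30.5 to 42.3 CPM in the WT inputs and 9.41 to 14.3 in the WT precipitates, fell 3.17-fold, and 2.96-fold in the mutant line (with total counts log2 -0.63, and -0.25, the latter not called). The chains called higher in both lines, LAMA2 and LAMB4, were scarce, at no more than 1.19 CPM in any library, and LAMA2 passed the filter through the precipitates.

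Integrin subunits moved in both directions. Of 13 tested alpha subunits 3 were higher and 5 lower in the WT line, and 2 were higher and 5 lower in the mutant line. Of 7 beta subunits 1 was higher and 2 lower, and then 2 and 3. Of all genes tested 25.6% were higher and 25.4% lower in the WT line, and 29% and 28% in the mutant line. For protein-coding genes these shares were 22.04% and 34.03%, and 26.6% and 36.1%. With so few subunits tested, the counts show nothing particular to integrins. ITGB1 had 270, 279 and 229 CPM in the WT inputs and 137, 113 and 144 in the WT precipitates. In the mutant line it had 185, 213 and 207 CPM in the inputs and 89.0, 81.0 and 88.5 in the precipitates. Both lines kept inputs and precipitates apart, with log2 fold changes of -0.98 ± 0.13 (edgeR adjusted p = 8.52e-07) and -1.23 ± 0.13 (edgeR adjusted p = 1.78e-08) that total counts turned to 0.09 and 0.09.

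ITGA6, which pairs with ITGB1 or ITGB4, had 72.3, 69.2 and 62.4 CPM in the WT inputs and 33.0, 29.6 and 39.0 in the WT precipitates, and 49.98, 52.2 and 50.7 against 24.2, 23.7 and 23.8 in the mutant line. Its inputs were about 2-fold above its precipitates without overlap (2.01-fold and 2.13-fold; log2 -1.01 ± 0.12 and -1.09 ± 0.12), and total counts turned the values to 0.06 and 0.22. ITGB5 had 49.9, 49.3 and 59.7 against 18.1, 17.7 and 22.1 CPM in the WT line, a 2.75-fold fall (3.03-fold in the mutant line) that was not called with total counts (log2 -0.40 and -0.29). Its partner ITGAV fell less, with log2 values of -0.49 ± 0.12 and -0.37 ± 0.12 that turned to 0.58 and 0.94 with total counts.

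ITGAE was the abundant integrin that rose. ITGAE is known from T cells of epithelia, where its product binds E-cadherin. Of the immune markers not under 1 CPM, the T cell gene CD3E stood at 0.270 ± 0.139 CPM in the WT inputs and 2.28 ± 0.252 in the WT precipitates (SD, n = 3). LYZ went the other way, from 5.84 ± 0.889 to 3.83 ± 0.559 CPM. Of the 4 tested immune markers, 1 (CD3E) was called higher and 2 (LYZ and CD14) lower in WT RIP. The part of such RNA in the ITGAE level was not tested. ITGAE had 20.6, 21.6 and 18.7 CPM in the WT inputs and 52.6, 64.2 and 53.2 in the WT precipitates, and 15.1, 24.5 and 20.5 against 54.6, 78.5 and 76.1 in the mutant line. All 6 precipitates stood above all 6 inputs, 2.80-fold in the WT line (log2 1.48 ± 0.16, edgeR adjusted p = 4.05e-08) and 3.48-fold in the mutant line (log2 1.80 ± 0.16, edgeR adjusted p = 1.3e-09). Of its exon bases 7.65% lie opposite HASPIN, so its counts are uncertain to that extent.

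**Figure D2:**
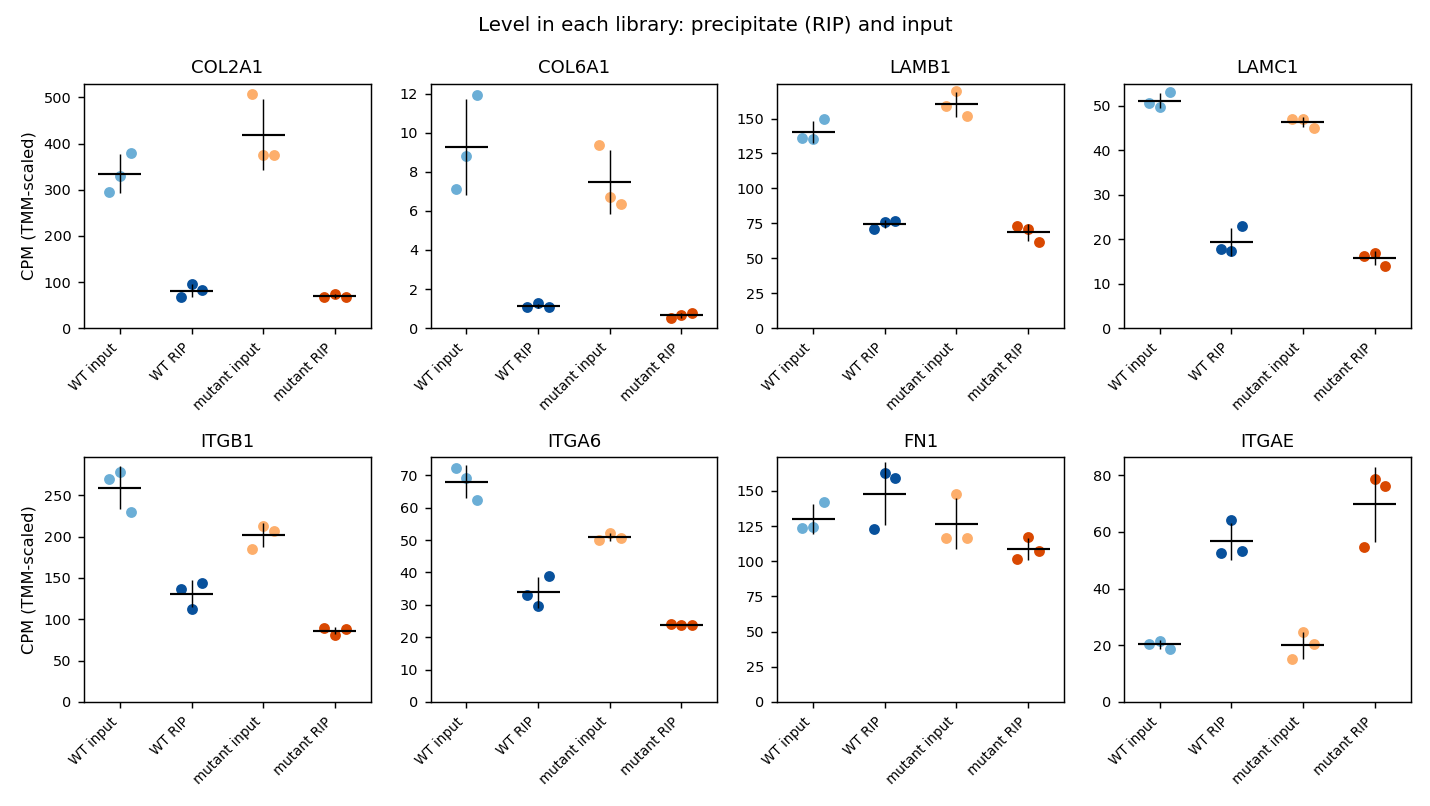
CPM (TMM-scaled, linear axes from 0) of 8 members in each of the 12 libraries; points are libraries, horizontal lines the group means and vertical lines ± 1 SD (n = 3). COL2A1, COL6A1, LAMB1, LAMC1, ITGB1 and ITGA6 stand lower in both precipitates than in their inputs on this scale (LAMB1, ITGB1 and ITGA6 turn direction with total counts), FN1 overlaps (it was called higher with total counts), and ITGAE stands higher.

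ITGB3, the beta chain of the platelet and vitronectin receptors, had 3.89, 4.53 and 5.00 CPM in the WT inputs and 7.53, 5.398 and 8.20 in the WT precipitates, and 2.18, 1.66 and 3.70 against 7.48, 5.76 and 6.40 in the mutant line. The groups did not overlap in either line, and the log2 fold changes were 0.65 ± 0.21 (edgeR adjusted p = 0.0133; not called without WT RIP 3 or WT input 1) and 1.38 ± 0.23 (edgeR adjusted p = 1.42e-05). An unnamed gene on the same strand shares 33.2% of its exon bases. ITGB8, another partner of ITGAV, passed in the mutant line with 0.53 ± 0.14 (edgeR adjusted p = 0.00189) and missed in the WT line with 0.18 ± 0.14, and its mutant value turned to -0.03 when the GC trend was removed. ITGA9, the alpha subunit with a mean of at least 1 CPM that rose beside ITGAE in the WT line (log2 0.86 ± 0.32), was not called without WT RIP 2, WT input 1 or WT input 3.

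The 3 tested genes with an integrin name that are no subunits were all higher in mutant RIP, and 1 of them in WT RIP. Of all genes tested 29% were higher in mutant RIP and 25.6% in WT RIP. ITGB1BP1, a cytosolic protein that binds the ITGB1 tail, had 22.4, 22.3 and 25.8 CPM in the WT inputs and 47.3, 42.7 and 38.0 in the WT precipitates (log2 0.86 ± 0.12, and 0.80 ± 0.12 in the mutant line), without overlap; 33.2% of its exon bases lie opposite ASAP2. ITGB3BP, a centromere protein, had 0.17 ± 0.13 and 0.65 ± 0.14, the latter turning to -0.02 without the GC trend.

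On the TMM scale fibronectin passed the test in neither line. FN1 had 124, 125 and 142 CPM in the WT inputs and 123, 163 and 159 in the WT precipitates, and 116, 148 and 116 against 102, 117 and 107 in the mutant line. Its groups overlapped in both lines, and the log2 fold changes of 0.19 ± 0.14 (edgeR adjusted p = 0.26) and -0.22 ± 0.14 (edgeR adjusted p = 0.171) did not pass. With total counts FN1 was called higher in both precipitates (log2 1.23 and 1.09; edgeR adjusted p = 2.31e-09 and 9.32e-08). As a family sum, collagens had 579 ± 56.0 CPM in the WT inputs and 200 ± 27.1 in the WT precipitates (SD, n = 3), and 606 ± 100 and 155 ± 10.95 in the mutant line. The alpha subunits, where the rise of ITGAE and the fall of ITGA6 meet, had 140 ± 10.9 and 128 ± 5.38 CPM, and 125 ± 8.53 and 137 ± 14.6.

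Members differed in base composition. Transcript GC content was 67.2% for COL18A1, 63.5% for COL6A1, 64.1% for COL26A1 and 62.3% for COL2A1, and 39.5% for ITGB1. With protein-coding genes tested split into 3 equal classes at 43.7% and 53.9% GC, 22 tested members fell in the high class, of which 1 was higher and 12 lower in the WT line (median -0.93). Of the 4672 protein-coding genes of that class 365 were higher and 2680 lower (median -0.67). The middle class held 23 members with 8 higher and 5 lower (median 0.42), where 1083 protein-coding genes were higher and 1356 lower (median -0.06). It included COL10A1 (47.5% GC) and COL11A1 (47.6%), which reached the level of the filter only in precipitates. A precipitate level above the input is partly built into such members, so the class medians of members carry this too. The low class held 9 members with 1 higher and 4 lower (median 0.17), where 1642 protein-coding genes were higher and 734 lower (median 0.18). Over the 31 members with at least 1 CPM the log2 fold change in the WT line had a Pearson r of -0.596 with GC content (-0.521 over 11798 protein-coding genes of that level) and of 0.406 with the T content of the 3′UTR (0.428). These points share libraries and depth, and no p is given.

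When each library's trend with GC content was removed, 9 members were higher and 21 lower in the WT line and 9 and 18 in the mutant line. The shares of all genes called under this setting are not given here, so these counts show nothing particular to the members. COL6A1, COL2A1, LAMC1, ITGB1 and the other named members kept direction and call, save COL27A1, ITGB3BP and ITGB8 as given above. Members off the trend were ITGAE, with 54.6% GC and a rise, and ITGB1 and ITGAV (38.3%), with low GC and falls. The part of base composition in the precipitate levels was not tested further.

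**Figure D3:**
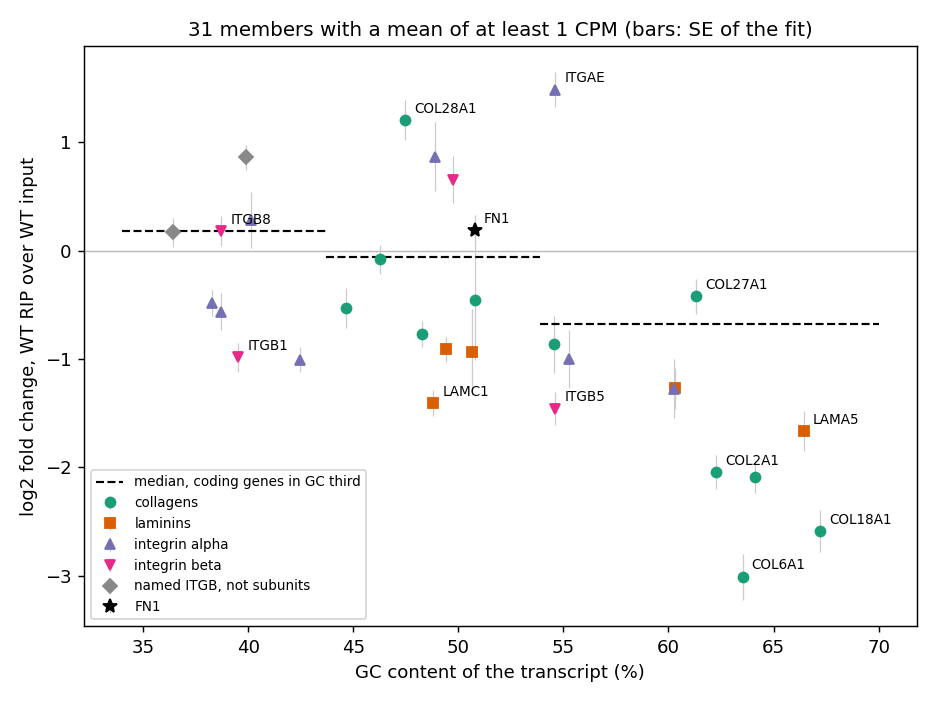
Transcript GC content (x axis, percent) against the log2 fold change of WT RIP over WT input (y axis, TMM scale) for the 31 members with a mean of at least 1 CPM; bars are the SE of the fit and dashed lines the median of all tested protein-coding genes in each of 3 GC classes. Members above 60% GC all lie below 0 (COL27A1 rises above it with total counts or with the GC trend removed), and ITGAE stands apart at 54.6%.

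The central question of the design is whether the loss of the lysines changed what HuR held, which is the difference between the enrichments of the lines (mutant minus WT). No member passed: edgeR called 0 of 54 higher and 0 lower, where it called 0.0653% of all genes higher and 0% lower. At an unadjusted p under 0.05 there were 4 higher and 3 lower, with 13.1% of all genes tested at that level, and DESeq2 called 0 of the 24 members to which it gave an adjusted p. The median difference of the members was -0.07, against 0.00 for all genes. For COL2A1 the difference was -0.54 ± 0.22 (edgeR adjusted p = 0.263), for FN1 -0.41 ± 0.19 (0.364), for LAMB1 -0.31 ± 0.17 (0.436), for ITGB1 -0.25 ± 0.19 (0.619) and for ITGAE 0.31 ± 0.22 (0.589). A p that misses the threshold does not show that the lines bound these RNAs alike.

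COL9A3, a chain of the fibril-associated cartilage collagen, had the lowest adjusted p of the members in this test. Its levels were 0.613, 0.445 and 0.472 CPM in the WT inputs and 0.662, 1.07 and 0.674 in the WT precipitates. In the mutant line they were 1.34, 0.962 and 1.06 CPM in the inputs and 0.438, 0.375 and 0.413 in the precipitates. WT precipitates thus lay above WT inputs and mutant precipitates below mutant inputs, both without overlap. The log2 fold change was 0.65 ± 0.33 in the WT line (edgeR adjusted p = 0.11) and -1.44 ± 0.34 in the mutant line (edgeR adjusted p = 0.000757; with total counts 1.66 and -0.14), and their difference of -2.09 ± 0.48 did not pass (edgeR adjusted p = 0.08). It passed with no filter on low counts (-2.10, edgeR adjusted p = 0.0442), and its adjusted p ranged up to 0.219 when single libraries were left out. COL9A3 was singled out after its values were seen.

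Between the lines themselves, several matrix genes differed already in the input. In mutant input 7 of the 54 members were higher and 5 lower than in WT input, against 7.47% and 10% of all genes. In mutant RIP 8 were higher and 8 lower than in WT RIP, against 9.87% and 9.76%. Of these, 5 were higher in both comparisons (COL4A5, COL28A1, COL27A1, ITGA1 and ITGA2) and 4 lower in both (COL12A1, COL18A1, COL5A2 and ITGA6). That is 71.4% and 80% of the input calls. The same overlap over all genes is not given here, so these shares show nothing particular to the members. COL9A3 was called in opposite directions, higher in mutant input and lower in mutant RIP. With total counts its input difference was 0.68 and did not pass (edgeR adjusted p = 0.204). The remaining input calls were ITGA5 (higher) and ITGB3 (lower). The lines differ in the HuR they carry and in being separate stable lines, and these cannot be told apart. The summed level of the stellate cell and fibroblast markers was also higher in the mutant line, without overlap in input or precipitate. Of its 4 tested markers PDGFRA and RGS5 were called higher in mutant input (13.5 ± 0.789 against 22.02 ± 2.03 CPM and 3.58 ± 0.486 against 6.24 ± 0.984, SD, n = 3). PDGFRB (log2 -0.32) and THY1 (log2 0.82) were not called there. Between the precipitates PDGFRA was called higher (log2 0.68) and RGS5 was not called (log2 0.36). DES, LRAT and POSTN were at 0. The part of these markers in the line differences was not tested.

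COL4A5, a basement membrane collagen chain encoded on the X chromosome, was nearly silent in the WT line and present in the mutant line. It had 6, 2 and 10 counts (0.127, 0.0524 and 0.214 CPM) in the WT inputs and 95, 126 and 101 counts (2.83, 3.28 and 2.67 CPM) in the mutant inputs. In the precipitates it had 2, 4 and 14 counts in the WT line and 250, 228 and 128 in the mutant line. No library of one line came near those of the other; mutant input was 21.3-fold above WT input (log2 4.41 ± 0.39, edgeR adjusted p = 3.06e-08) and mutant RIP 33.9-fold above WT RIP (log2 5.08 ± 0.38, edgeR adjusted p = 1.51e-09). COL4A3 was at 0.0529 to 0.298 CPM in all 6 inputs, and COL4A4, COL4A6 and COL4A2 had 26, 23 and 36 counts over the 12 libraries and were not tested.

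The collagen-binding alpha subunits ITGA1 and ITGA2, neighbours on chromosome 5, were both higher in the mutant line. ITGA2 had 1.16, 1.15 and 1.12 CPM in the WT inputs and 2.44, 2.76 and 4.23 in the mutant inputs (log2 1.46 ± 0.26, edgeR adjusted p = 0.000295). ITGA1 had 7.36, 5.21 and 4.89 against 9.54, 11.3 and 12.7 CPM (log2 0.94 ± 0.17, edgeR adjusted p = 0.00028). Neither gene's inputs overlapped between the lines, and the precipitates differed alike, by 1.31 ± 0.24 and 1.12 ± 0.16; ITGA1 shares 8.06% of its exon bases with ITGA2-AS1 on the other strand and 5.77% with a gene on its own. With total counts the ITGA1 difference in input was 0.48 and did not pass.

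COL28A1 and COL27A1 were also higher in the mutant line. COL28A1 was 1.93-fold higher in mutant input (log2 0.95 ± 0.19) and 2.07-fold higher in mutant RIP (log2 1.05 ± 0.17), from the per-library levels above, which do not overlap between the lines. COL27A1 had 8.71, 7.91 and 10.9 CPM in the WT inputs and 19.9, 13.2 and 15.7 in the mutant inputs (log2 0.83 ± 0.16), again without overlap. Neither input difference passed with total counts (0.50 and 0.40). ITGA5, the fibronectin receptor alpha chain, was at 0.507, 0.262 and 0.0858 CPM in the WT inputs and 0.954, 0.884 and 1.51 in the mutant inputs, which is higher in all 3 libraries (log2 1.95 ± 0.49, edgeR adjusted p = 0.00621).

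**Figure D4:**
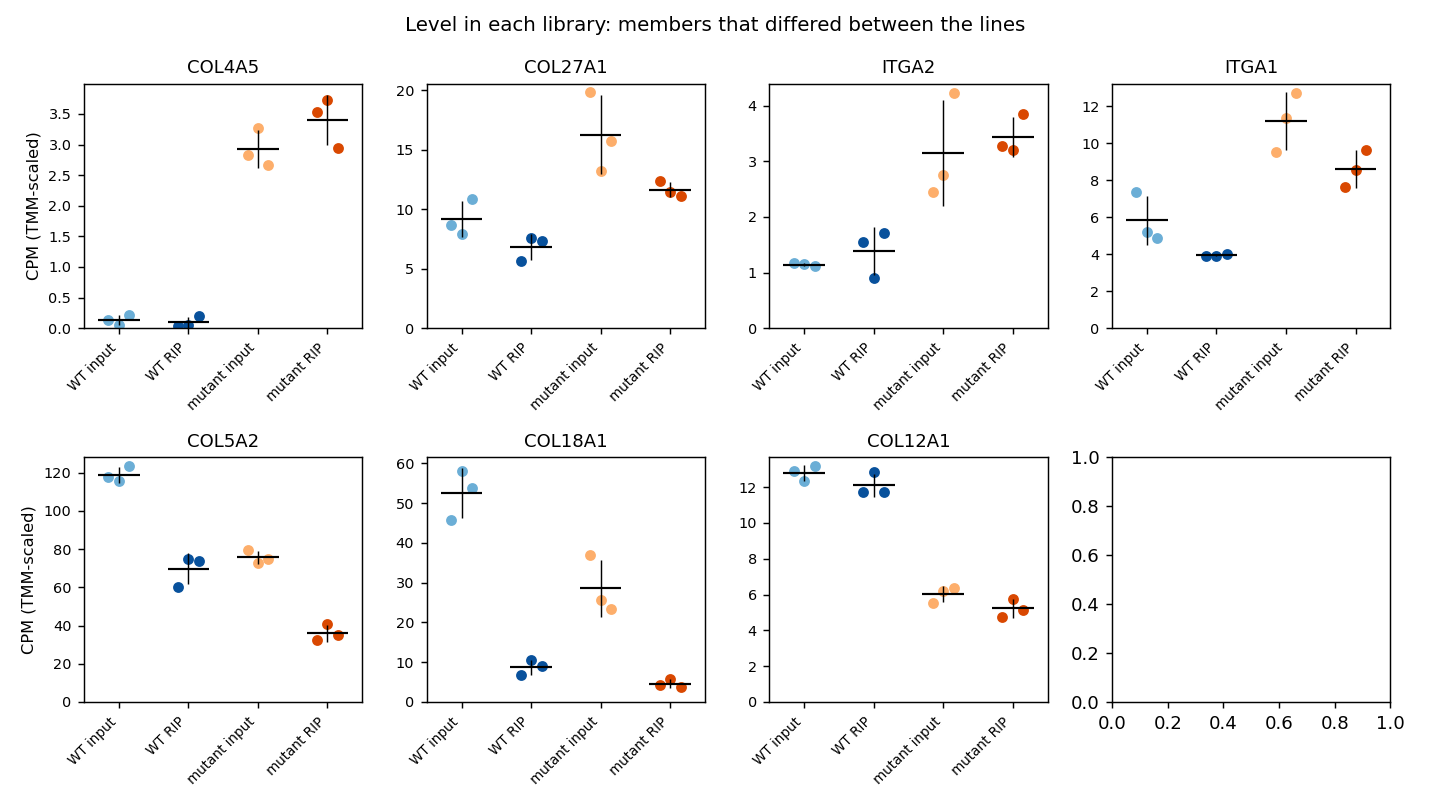
CPM (TMM-scaled, linear axes from 0) in each library of members that differed between the lines in input. Points are libraries, horizontal lines group means and vertical lines ± 1 SD (n = 3). COL4A5, COL27A1, ITGA2 and ITGA1 stand higher in the mutant line in input and precipitate, and COL5A2, COL18A1 and COL12A1 lower.

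COL12A1 had the lowest log2 value of the members called between the lines, in input and in precipitate. It had 12.9, 12.3 and 13.2 CPM in the WT inputs and 5.51, 6.19 and 6.37 in the mutant inputs, and 11.7, 12.8 and 11.8 against 4.74, 5.76 and 5.16 in the precipitates. All 6 mutant libraries were under all 6 WT libraries, by 2.12-fold in input (log2 -1.09 ± 0.14, edgeR adjusted p = 6.07e-06) and 2.32-fold in the precipitates (log2 -1.21 ± 0.13, edgeR adjusted p = 8.11e-07). COL5A2 was lower by log2 -0.65 ± 0.12 in input and -0.95 ± 0.12 in the precipitates, and COL18A1 by -0.88 ± 0.18 and -0.91 ± 0.19, neither with overlap between the lines.

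ITGA6 was lower in the mutant line by -0.42 ± 0.12 in input and -0.50 ± 0.12 in the precipitates; the input call was lost without WT input 1, WT input 2, mutant input 2 or mutant input 3. ITGB1 was lower in the precipitates by -0.61 ± 0.13 (edgeR adjusted p = 0.00186), and its input value of -0.36 ± 0.13 did not pass (edgeR adjusted p = 0.0582; with total counts -0.79, called). ITGB3 was lower in input by -0.83 ± 0.23, a call lost without WT input 3, mutant input 1 or mutant input 2. No laminin chain was called between the lines in input or precipitate. Of all genes, 7.47% were higher and 10% lower in input, and 9.87% and 9.76% in precipitate. With 8 chains tested, 0 calls thus show nothing particular to laminins. LAMB1 had 0.19 ± 0.12 in input, LAMC1 -0.14 ± 0.12 and LAMA5 0.01 ± 0.18 (edgeR adjusted p = 0.287, 0.465 and 0.982). DESeq2 called 0 of the 8 chains in either comparison, with 1 chain at an unadjusted p under 0.05 by edgeR in each. With total counts LAMC1 was called lower in mutant input (-0.58, edgeR adjusted p = 0.0187).

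Further calls were made between the precipitates alone. FN1 was lower in mutant RIP than in WT RIP by -0.45 ± 0.14 (edgeR adjusted p = 0.0216), with no overlap between the 3 libraries of each line, while its input value of -0.04 ± 0.14 did not pass (with total counts -0.48, edgeR adjusted p = 0.0447). The FN1 call was lost without WT RIP 2, WT RIP 3, mutant RIP 1 or mutant RIP 3, which gave -0.38, -0.39, -0.41 and -0.44. COL6A1 was lower by -0.81 ± 0.24, lost without WT RIP 2 or mutant RIP 1. ITGAL was higher by 0.999 ± 0.27, lost without WT RIP 1 or mutant RIP 2. ITGA3, a laminin receptor chain, rose from 0.364, 0.268 and 0.323 CPM in WT RIP to 0.593, 0.914 and 1.77 in mutant RIP (log2 1.75 ± 0.40), and ITGB1BP2 from 0.331, 0.0846 and 0.267 to 0.565, 1.55 and 1.24 (log2 2.29 ± 0.47), both without overlap. Without WT RIP 2 or without mutant RIP 1 the members called lower in mutant RIP numbered 5 in place of 8.

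**Figure D5:**
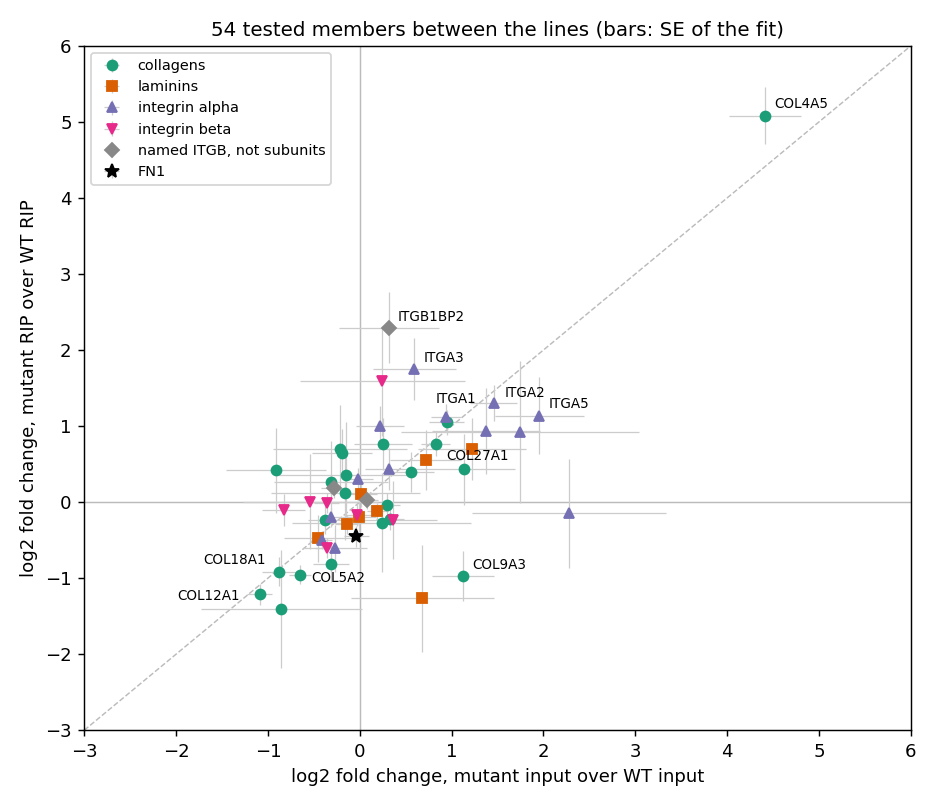
Log2 fold change of mutant input over WT input (x axis) and of mutant RIP over WT RIP (y axis) for the 54 tested members, TMM scale; bars are the SE of the fit and the dashed line marks equal values. COL4A5 lies far up at 4.41 and 5.08, COL12A1, COL18A1 and COL5A2 lie low on both axes, and COL9A3 lies right of 0 and below it.

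Genes that make, modify and bind these proteins were counted from lists chosen for this purpose, on the TMM scale. The same calls took 25.6% of all genes upward and 25.4% downward in the WT line, and 29% and 28% in the mutant line. Of protein-coding genes 34.03% and 36.08% were lower. These shares also stand beside the hepatocyte markers below. Total counts raised the median of all genes as given above, so the list medians and smaller falls lean on the scaling. List values with total counts are not given here. Nothing particular to a list was tested. Of 28 genes of collagen processing 25 were tested, and 1 (PLOD2, a lysyl hydroxylase) was higher and 19 lower in the WT line; 1 was higher and 17 lower in the mutant line, with medians of -0.938 and -0.996. P4HB, the beta subunit of prolyl 4-hydroxylase, went from 384 ± 25.7 CPM in the WT inputs to 77.5 ± 5.45 in the WT precipitates (SD, n = 3; log2 -2.31 ± 0.14), and PLOD1, P3H1 and COLGALT1, which hydroxylate or glycosylate collagen, had -2.07, -2.27 and -2.04.

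Of 33 other matrix proteins 24 were tested, with 2 higher (CCN1 and CCN2) and 16 lower in the WT line and 1 and 16 in the mutant line. FBLN1 (fibulin), VTN (vitronectin, a ligand of ITGAV with ITGB5) and NID1 (nidogen, which links laminin to collagen) had -2.68, -2.90 and -1.55 in the WT line and -3.09, -3.08 and -1.92 in the mutant line; 17.3% of the exon bases of VTN are shared with a gene on the same strand. Of 13 other matrix receptors 9 were tested, with 0 higher and 8 lower in the WT line and 0 and 7 in the mutant line by edgeR (also by DESeq2, and 0 higher at an unadjusted p under 0.05), among them DAG1 (dystroglycan, -1.76 in the WT line), BCAM (a LAMA5 receptor, -2.59) and SDC1 (-1.51). Of 33 matrix proteases and inhibitors 22 were tested, with 1 higher and 8 lower and then 1 and 11, among them MMP15 (-2.11), ADAM15 (-1.50) and TIMP2 (-1.33).

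Of 31 genes of the integrin adhesion complex 30 were tested, with 3 higher (PTK2, TNS2 and ITGB1BP1) and 18 lower in the WT line and 3 and 20 in the mutant line. PTK2, the focal adhesion kinase, went from 56.7 ± 1.87 CPM in the WT inputs to 224 ± 38.2 in the WT precipitates and from 59.8 ± 2.92 to 279 ± 2.77 in the mutant line (SD, n = 3; log2 1.98 ± 0.13 and 2.22 ± 0.14, edgeR adjusted p = 1.46e-11 and 1.05e-12). The tetraspanins CD151 and CD81, which sit beside laminin-binding integrins in the membrane, had -2.75 and -1.76 in the WT line. For the difference between the enrichments of the lines edgeR called 0 of the 110 tested genes of these 5 lists, with 8 higher and 15 lower at an unadjusted p under 0.05; DESeq2 called 1, SDC4, lower (-0.56, adjusted p = 0.0151). Over all genes edgeR called 0.0653% higher and 0% lower in that difference, with 13.1% at an unadjusted p under 0.05. Between the inputs edgeR called 4 higher and 4 lower in collagen processing, 1 and 6 in other matrix proteins, and 7 and 6 in the adhesion complex. It called 1 and 2 in other receptors, and 3 and 1 in proteases and inhibitors. Between the precipitates edgeR called 3 and 3, 2 and 9, 2 and 5, 1 and 4, and 2 and 5 in the same order. Of all genes, 7.47% were higher and 10% lower between the inputs, and 9.87% and 9.76% between the precipitates. Of 12 hepatocyte markers 0 were higher and 11 lower in the precipitate of each line by edgeR (0 higher also by DESeq2 and at an unadjusted p under 0.05); FGB is in both this list and that of other matrix proteins.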

How the data were processed

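RNA-seq counts per gene were deposited for each of the 12 libraries. The authors made these counts with bcl2fastq 2.20.0.422, cutadapt, STAR 2.4.0j and featureCounts 1.6.4 on hg19, per the submitters' processing notes; a stranded total RNA kit was used, per the labels' protocols, and the strand setting of the counting is not given in the sources used here. Genes passed with edgeR 4.0.16 filterByExpr (minimum count 10, minimum total 15), which left 22984. All 12 libraries were fitted in 1 robust quasi-likelihood model with 4 group coefficients and TMM scaling (8 residual degrees of freedom), and p-values were Benjamini-Hochberg adjusted over all 22984 genes. No block was used: the labels give numbers 1 to 3 in each group but no shared culture. The values of 1 tested member are not reported here. Scripts were tested on simulated data. Positions and exon lengths came from GENCODE 44 lifted to hg19 (55538 of 57773 identifiers matched). Named members are FN1, the 2 most abundant per kb in each family, the 6 highest and 6 lowest called members of at least 1 CPM in each comparison, their partner chains, and up to 3 genes per list with the smallest adjusted p in each precipitate comparison; COL9A3, COL6A6, ITGA3, ITGA5, ITGAV, ITGB1BP2, LAMA2, LAMB2, LAMB4, PLOD2, TNS2, CCN1 and CCN2 were named after their values were seen. The members, lists and tests were chosen with earlier results of these data known. Alternatives were DESeq2 1.42.0 and its size factors, total counts, TMM from protein-coding genes, no filter, a filter of at least 50 counts in 3 libraries, the groups compared alone, the replicate number as a block, a GC correction and leaving out each library.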

Additional observations from a re-analysis of the deposited data

How the results depend on the processing

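All counts of called members stayed within 1.5 times, and medians within the spread of the libraries, under DESeq2's test and size factors, TMM from protein-coding genes, the GC correction and the groups compared alone (no value for the difference of enrichments). Scaling by total counts gave 27 members higher, 5 lower and a median of 0.77 in WT RIP over input, 29, 4 and 1.08 in the mutant line, and 3, 14 and -0.39 for mutant over WT input (-0.43 for all genes). Of the 31 members called in the WT line it turned the sign of 10, and of the 34 called in the mutant line 11, 3 of them then called higher in each. These were COL5A2 (0.28 in the WT and 0.22 in the mutant line), LAMB1 (0.14, 0.0885), ITGA6 (0.0561, 0.22), ITGB1 (0.0897, 0.0854), ITGA1 (0.47, 0.92), COL27A1 (0.61, 0.82), ITGAV (0.58, 0.94), COL1A2 (0.19, 0.27), in the WT line ITGAL (0.0233) and COL14A1 (0.52), and in the mutant line ITGA7 (0.12), COL9A2 (0.21) and LAMA3 (0.21). Between the lines it turned no call, and COL14A1, COL3A1, COL6A1, FN1, ITGAV, ITGB1, ITGB3BP, ITGB8 and LAMC1, not called on the TMM scale, were called lower in mutant input. The GC correction reversed COL27A1 (0.25, 0.40) and, in the mutant line, ITGB3BP (-0.0224) and ITGB8 (-0.032). With no filter the WT median was -0.0351 and 1 member, COL9A3, was lower in the difference of enrichments; with the stricter filter, which tested 34 members, 6 were higher in the WT line (median -0.67) and 7 in the mutant line. Leaving out 1 library at a time gave 4 to 10 members higher in WT RIP over input and 5 to 8 lower in mutant over WT RIP. The labels do not say whether replicate numbers pair libraries. Correlations of deviations ran from -0.35 to 0.42 for same numbers and from -0.37 to 0.44 for different ones. For RIP with its own input, same numbers gave 0.192, 0.145 and -0.123 in the WT line and 0.221, -0.0309 and 0.278 in the mutant line. With the replicate block 9 members were higher and 21 lower in the WT line, 11 and 21 in the mutant line, and 0 and 0 in the difference. Of the named calls ITGA1 in the mutant line was then lost (-0.38, edgeR adjusted p = 0.0545). Of 91 named calls, 10 more were lost with total counts, 3 with TMM from protein-coding genes, 2 with DESeq2's test, 2 with the stricter filter and 1 to 5 when a library was left out; the causes of these changes were not tested. Members under 1 CPM rest on few counts, so a call missed there may lie below what this depth can show.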
